A study of Mus musculus with 18 samples.

Results

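The genes described here are 9 transcription factors that act when neural progenitors turn to glia: the 4 nuclear factor I (NFI) genes Nfia, Nfib, Nfic and Nfix, and Zbtb20, Stat3, Atf3, Runx2 and Rorb. They were taken by name from a table of 27997 mouse genes, by a rule that uses no measured value but was set with earlier results of these data known, and all 9 passed the filter on low values. The table holds 18 bulk RNA-seq libraries, 3 from each of 6 groups: 3 lines of cultured neural stem cells (NSCs), each as NSCs and as astrocytes. The tdTomato line (genotype DNGR-1 +/- Tom+/-) and the EYFP line (DNGR-1 +/- EYFP+/-) were grown from spinal cord cells that carried a history of DNGR-1 expression, read out by Cre driven from Clec9a, the gene of the dendritic cell receptor DNGR-1, and a floxed tdTomato or EYFP reporter. The reporter-positive cells were sorted from neurospheres. The hippocampal line (DNGR-1+/+) came from hippocampus of mice with a Glast-driven Cre, a floxed Huwe1 allele and a floxed EYFP reporter; the sources used here do not state whether Huwe1 was recombined in these cultures.

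NSCs were cultured on laminin for 4 days with bFGF and EGF, each at 20 ng/ml, and were detached with an enzyme mix before lysis. Astrocytes were collected on day 6, after the stem cell medium had been replaced by medium with BMP4 at 20 ng/ml. BMP4 and the loss of growth factors therefore go together in every comparison of NSCs with astrocytes and cannot be told apart. By the study's methods the 3 replicates of a group come from successive passages, from passage 10 to passage 12. Which replicate number is which passage is not stated. The labels name no animals within a line, so a p-value measures the spread between cultures of a line and not between animals. Values are on a log2 scale that the authors normalised for library size, and the read depth behind them is unknown from the table, beyond a minimum that the labels set for all libraries alike, with reads of 76 bases from 1 end. In bulk RNA, fewer cells of a type and less RNA per cell cannot be told apart.

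NFI proteins bind DNA as dimers at a palindrome of the half-site TTGGC, and NFIA and NFIB are known for switching embryonic progenitors from making neurons to making astrocytes. STAT3 carries the signal of interleukin-6-type cytokines from the JAK kinases to the nucleus and acts with the SMAD proteins downstream of BMP at astrocyte genes such as Gfap. ZBTB20 is a zinc finger repressor of the hippocampal and glial lineages, RORB an orphan nuclear receptor of retina and cortex, RUNX2 the regulator that commits cells to bone, and ATF3 a basic leucine zipper factor induced within hours by many stresses.

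Upstream sequence was read for the members from RefSeq on GRCm38.p6, which listed 12 start sites for 8 of the 9 members; Nfib had no entry. The 250 bases before 1 start site are shown for 4 members, chosen after their values were seen: Stat3 and Rorb as examples of genes that rose in all 3 lines, and Atf3 and Runx2, whose change differed between lines. Each start shown lay within 7 bases of a transcript start in GENCODE, as did those of Nfic and Zbtb20 and a second start of Rorb, which are not shown. All 4 genes lie on the reverse strand, and each sequence is written 5′ to 3′ on the strand of its gene. Capitals mark matches to the motifs searched.
Stat3, chr11:100939541-100939790: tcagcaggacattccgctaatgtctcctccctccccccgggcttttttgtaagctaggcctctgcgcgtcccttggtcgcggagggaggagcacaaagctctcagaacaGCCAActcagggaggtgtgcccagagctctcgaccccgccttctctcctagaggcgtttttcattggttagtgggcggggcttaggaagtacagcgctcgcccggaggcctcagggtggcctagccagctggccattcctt
Rorb, chr19:19111197-19111446: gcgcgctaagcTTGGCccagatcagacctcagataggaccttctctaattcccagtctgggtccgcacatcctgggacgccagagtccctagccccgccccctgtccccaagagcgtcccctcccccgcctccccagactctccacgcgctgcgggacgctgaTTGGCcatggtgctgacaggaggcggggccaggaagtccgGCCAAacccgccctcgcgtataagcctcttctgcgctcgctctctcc
Atf3, chr1:191183334-191183583: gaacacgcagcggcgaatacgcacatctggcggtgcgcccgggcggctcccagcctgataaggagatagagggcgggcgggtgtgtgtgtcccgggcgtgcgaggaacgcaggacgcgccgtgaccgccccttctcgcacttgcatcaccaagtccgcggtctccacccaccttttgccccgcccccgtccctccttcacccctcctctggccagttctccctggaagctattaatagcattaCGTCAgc
Runx2, chr17:44814628-44814877: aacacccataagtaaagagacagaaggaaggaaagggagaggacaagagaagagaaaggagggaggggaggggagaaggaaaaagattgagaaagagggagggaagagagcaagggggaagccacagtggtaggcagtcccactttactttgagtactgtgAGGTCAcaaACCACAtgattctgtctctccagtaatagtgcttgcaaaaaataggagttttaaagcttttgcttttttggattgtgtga
The 9 motifs were searched on both strands, and the half-sites lie within the longer sites of the same family: the NFI half-site TTGGC and the full NFI palindrome of 2 such half-sites, the STAT site TTCNNNGAA, the cyclic AMP response element TGACGTCA and its half-site TGACG, the AP-1 site TGANTCA, the RUNX site TGTGGT, the ROR half-site core AGGTCA and the SMAD site GGCGCC. Rorb held 3 NFI half-sites and Stat3 held 1, and 41.5% of 32851 mouse start sites hold at least 1 in a window of the same length. Atf3 held the TGACG half-site 7 to 3 bases before the start, read from the other strand, a match that 17.8% of start sites have. Runx2 held a RUNX site and a ROR half-site core, each found at 14.0% of start sites. Of the starts not shown, that of Nfic held a STAT site (found at 7.02% of start sites), that of Zbtb20 a RUNX site and the second of Rorb an AP-1 site (6.75%). Of the 4 starts of Nfix, the one 14 bases from a GENCODE start held a ROR half-site core, and the other three, 521 to 5713 bases from the nearest, held 7 matches between them: 2 NFI half-sites, a ROR half-site core and an AP-1, a STAT, a RUNX and a SMAD site (SMAD, 9.59%). The start listed for Nfia held none but lay 190791 bases from the nearest GENCODE start, so it does not describe the sequence before the GENCODE gene. A match is a stretch of letters and no evidence of binding, and no full NFI palindrome, found at 0.0365% of start sites, was present at any of the 12.

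**Figure D1:**
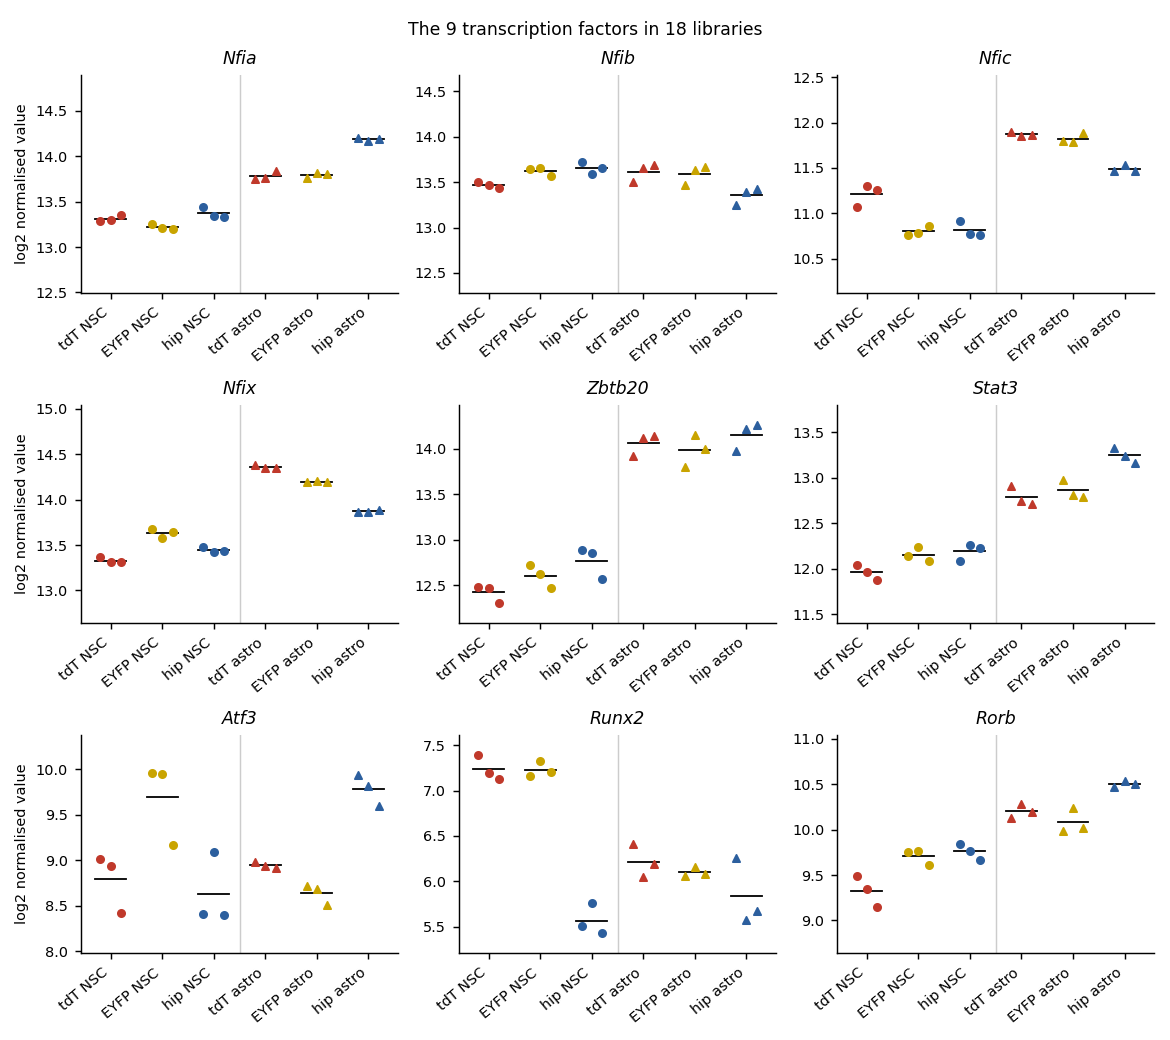
Log2 normalised value (y axis) of each of the 9 genes in every library, by group (x axis; tdT, tdTomato; hip, hippocampal; circles, NSCs; triangles, astrocytes; bar, mean of 3). All panels span the same log2 range. In Nfia, Nfic, Nfix, Zbtb20, Stat3 and Rorb every astrocyte library lies above every NSC library, whereas Nfib, Atf3 and Runx2 overlap between fates.

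Between NSCs and astrocytes, over all 3 lines, 6 of the 9 genes rose, 1 fell and 2 did not pass the test (limma, Benjamini-Hochberg adjusted p under 0.05, 9 libraries against 9). Of all 15448 genes tested, 42.1% rose and 39.8% fell, so a change as such was common. The median log2 difference of the 9 genes was 0.66, and that of all genes was 0.02. In the 6 that rose, every astrocyte library lay above every NSC library, as in 22.9% of all genes tested. The largest of the 6 rises was that of Zbtb20, by 1.47 ± 0.07 (SE) on the log2 scale or 2.76-fold, a size at or above that of 85.8% of all genes tested. The other 5 rises lay between 0.62 and 0.87, sizes that 57.9% to 70.9% of all genes tested did not exceed.

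Nfia (ENSMUSG00000028565; GRCm38 chromosome 4, 97772734 to 98118874, forward strand) stood at 13.28, 13.30 and 13.35 in tdTomato NSCs, 13.25, 13.21 and 13.20 in EYFP NSCs and 13.44, 13.34 and 13.33 in hippocampal NSCs. In astrocytes it stood at 13.74, 13.76 and 13.84 in the tdTomato line, 13.76, 13.81 and 13.80 in the EYFP line and 14.20, 14.17 and 14.19 in the hippocampal line. The hippocampal astrocytes were thus the highest group, clear of the other 6 astrocyte libraries, which overlapped each other. Nfia rose by 0.47 ± 0.05, 0.57 ± 0.05 and 0.81 ± 0.05 in the tdTomato, EYFP and hippocampal lines (SE, n = 3 against 3; adjusted p = 1e-05, 2.4e-06 and 1.3e-07).

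Nfix (ENSMUSG00000001911; chromosome 8, 84699876 to 84800344, reverse strand), an NFI gene with a role in adult neural stem cells, had the opposite order of lines in astrocytes. Its values in NSCs were 13.36, 13.31 and 13.31 in the tdTomato line, 13.67, 13.58 and 13.64 in the EYFP line and 13.48, 13.42 and 13.43 in the hippocampal line. In astrocytes they were 14.38, 14.34 and 14.35, then 14.19, 14.20 and 14.19, then 13.86, 13.86 and 13.89 in the same order of lines. No astrocyte group overlapped another, with the tdTomato line highest and the hippocampal line lowest. Nfix rose by 1.03 ± 0.04, 0.56 ± 0.05 and 0.43 ± 0.04 in these lines, taken in the same order (adjusted p = 3.5e-08, 4.2e-06 and 7.3e-06).

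Nfic (ENSMUSG00000055053; chromosome 10, 81396186 to 81455635, reverse strand), the most broadly expressed NFI gene in adult tissue, stood at 11.08, 11.30 and 11.26 in tdTomato NSCs, 10.76, 10.79 and 10.86 in EYFP NSCs and 10.91, 10.78 and 10.77 in hippocampal NSCs. Its astrocyte values were 11.89, 11.85 and 11.86, then 11.80, 11.79 and 11.88, then 11.46, 11.54 and 11.47. The tdTomato line was the highest as NSCs, and both traced lines were above the hippocampal line as astrocytes. Nfic rose by 0.66 ± 0.06, 1.02 ± 0.05 and 0.67 ± 0.05 in the tdTomato, EYFP and hippocampal lines (adjusted p = 5.2e-06, 5.6e-08 and 8.5e-07).

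Nfib (ENSMUSG00000008575; chromosome 4, 82290173 to 82705750, reverse strand) was the NFI gene that did not rise with the others. It stood at 13.51, 13.46 and 13.44 in tdTomato NSCs, 13.64, 13.66 and 13.57 in EYFP NSCs and 13.72, 13.59 and 13.65 in hippocampal NSCs, and at 13.50, 13.65 and 13.69, then 13.46, 13.63 and 13.66, then 13.25, 13.40 and 13.43 in the astrocytes of these lines. The fates overlapped in both traced lines, and every hippocampal astrocyte library lay below every hippocampal NSC library. Over all lines the difference was -0.06 (95% interval -0.19 to 0.06, adjusted p = 0.30). Nfib fell by 0.30 ± 0.06 in the hippocampal line (adjusted p = 0.001). The EYFP line gave -0.04 ± 0.06 (adjusted p = 0.58), and the tdTomato line gave 0.14 ± 0.06 (adjusted p = 0.039), a call lost when either of 2 NSC or 2 astrocyte libraries was left out (numbers 2 and 3 of each; adjusted p up to 0.14). It was also lost with quantile normalization, no filter, no variance trend or a replicate block (adjusted p from 0.062 to 0.17).

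To set the 4 NFI genes against each other, the values were taken off the log scale and divided by the length of the merged exons of each gene. Per kb, Nfix made up the largest share of the 4 in every group, from 40.6% ± 0.9 (SD, n = 3) in tdTomato NSCs to 51.4% ± 1.1 in tdTomato astrocytes, and Nfic the smallest, from 7.26% ± 0.34 in EYFP NSCs to 10.5% ± 0.3 in EYFP astrocytes. The share of Nfib went from between 22.0% and 23.8% in the 3 NSC groups to between 14.4% and 15.7% in the 3 astrocyte groups. Hippocampal astrocytes had the largest share of Nfia, 35.0% ± 0.7, against 23.3% ± 0.6 and 24.9% ± 0.2 in the traced astrocytes. Divided by the longest coding transcript in place of the merged exons, a choice made after seeing the data, Nfix remained first in every group (41.1% to 52.6%), but Nfib stood above Nfia in the 3 NSC groups, where the merged exons put Nfia first. The order of Nfia and Nfib in NSCs is therefore set by the length chosen.

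**Figure D2:**
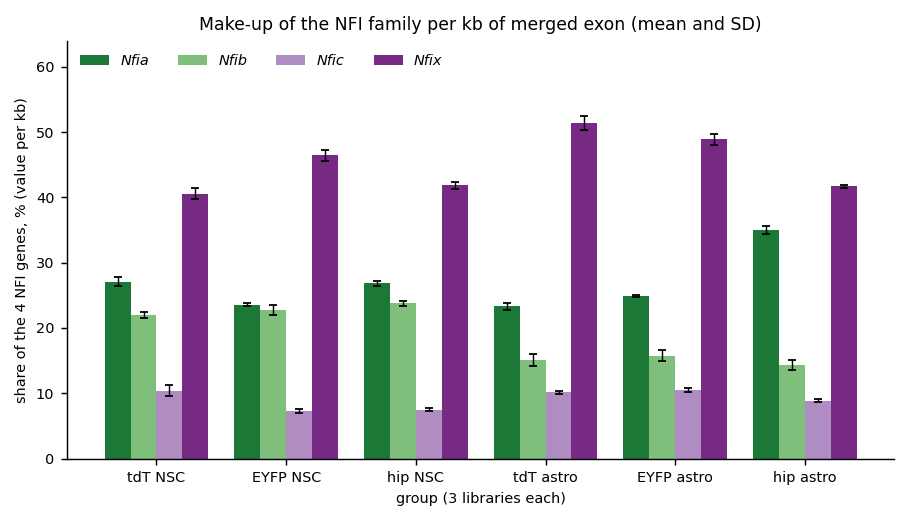
Share of each NFI gene in the sum of the 4 per kb of merged exon (y axis, percent; bars, mean of 3 libraries; error bars, SD) by group (x axis). Nfix is the tallest bar in every group, and Nfib is shorter in the 3 astrocyte groups (14.4% to 15.7%) than in the 3 NSC groups (22.0% to 23.8%).

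Of 20 genes associated with NFI factors, targets and partners in glia, 13 rose and 4 fell over all lines, with a median log2 difference of 0.84 against 0.02 for all genes. The largest rises were those of Gfap, the astrocyte intermediate filament (6.53 ± 0.15), Aqp4, the water channel of astrocyte endfeet (4.36 ± 0.13), and Sparcl1, a secreted synapse-promoting protein (4.22 ± 0.30). The largest falls were those of Ezh2, the Polycomb methyltransferase (-2.15 ± 0.06), Apcdd1, a Wnt inhibitor (-1.26 ± 0.15), and Hes1, a Notch effector (-1.19 ± 0.11; all adjusted p at most 4e-07). Gfap stood between 8.96 and 9.44 in the 9 NSC libraries and between 14.69 and 16.66 in the 9 astrocyte libraries. Of 8 astrocyte markers 6 rose and none fell.

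Zbtb20 (ENSMUSG00000022708; chromosome 16, 42875881 to 43642602, forward strand) rose in all 3 lines. As NSCs it stood at 12.49, 12.47 and 12.31 in the tdTomato line, 12.72, 12.62 and 12.47 in the EYFP line and 12.89, 12.85 and 12.57 in the hippocampal line. As astrocytes it stood at 13.92, 14.12 and 14.15, then 13.80, 14.15 and 14.00, then 13.98, 14.22 and 14.27. The gap between fates was many times the spread within a group, and the lines overlapped within each fate, except that every tdTomato NSC library lay below every hippocampal NSC library. The rise was 1.64 ± 0.07, 1.38 ± 0.09 and 1.38 ± 0.10 (adjusted p = 4.5e-08, 7.1e-07 and 5.6e-07), and fate accounted for 95.3% of the variance of Zbtb20 over the 18 libraries. The test of whether the change differed between origins gave 0.13 (95% interval -0.14 to 0.40, adjusted p = 0.43), and that between the traced lines 0.26 (-0.05 to 0.57, adjusted p = 0.26). Of 11 tested genes associated with ZBTB20, a list that includes Nfia, 6 rose and 5 fell. Those that rose most were its zinc finger relatives Zbtb7b (1.66 ± 0.08) and Zbtb16 (1.28 ± 0.08) and the glial regulator Sox9 (1.09 ± 0.11). Those that fell most were Bcl11b, a neuronal zinc finger factor (-2.28 ± 0.28), the gluconeogenic enzyme gene Fbp1 (-1.84 ± 0.19) and Zbtb45 (-0.37 ± 0.06).

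Stat3 (ENSMUSG00000004040; chromosome 11, 100885098 to 100939540, reverse strand) stood at 12.04, 11.96 and 11.88 in tdTomato NSCs, 12.14, 12.24 and 12.08 in EYFP NSCs and 12.09, 12.26 and 12.23 in hippocampal NSCs. In astrocytes it stood at 12.91, 12.75 and 12.72, then 12.98, 12.81 and 12.79, then 13.33, 13.25 and 13.17. As with Nfia, the hippocampal astrocytes lay above all 6 traced astrocyte libraries. Stat3 rose by 0.83 ± 0.06, 0.71 ± 0.06 and 1.06 ± 0.06 in the tdTomato, EYFP and hippocampal lines (adjusted p = 1.4e-06, 4.9e-06 and 1.1e-07), and by 1.82-fold over all lines.

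Of 32 tested genes of the JAK-STAT3 pathway besides Stat3, 22 rose and 6 fell over all lines, with a median log2 difference of 0.69. Among the receptors, Osmr, the signalling chain for oncostatin M, rose by 3.96 ± 0.17, from between 4.27 and 5.70 in NSC libraries to between 8.63 and 9.20 in astrocyte libraries. Among the ligands, Clcf1, a cytokine that signals through the CNTF receptor, rose by 3.67 ± 0.28 and Lif, another ligand of the family, fell by 0.87 on the log2 scale. Lcn2, a target of STAT3 that encodes a secreted iron carrier, rose by 3.66 ± 0.47. Lcn2 differed sharply by line: its 3 values were 4.49, 3.46 and 3.64 in tdTomato astrocytes, 4.19, 3.60 and 3.68 in EYFP astrocytes and 8.51, 7.44 and 7.41 in hippocampal astrocytes. The targets Myc and Pim1 fell by 0.57 and by 0.48 on the log2 scale.

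Stat5b, a related STAT gene, fell by 0.23 on the log2 scale (adjusted p = 0.0006), and Stat5a, with group means of 2.18 to 2.93, did not pass the filter. Lcn2 shares with Stat3 that the hippocampal astrocytes were highest. The change of Lcn2 differed between origins by -3.91 ± 0.35 (traced minus hippocampal, adjusted p = 7.7e-08). As NSCs, the tdTomato, EYFP and hippocampal lines had Lcn2 means of 1.51, 1.46 and 1.52, below the filter on low values. Lcn2 passed that filter through astrocyte libraries, so the difference in its change rests on the astrocyte values.

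Rorb (ENSMUSG00000036192; chromosome 19, 18930605 to 19111196, reverse strand) stood at 9.48, 9.35 and 9.15 in tdTomato NSCs, 9.76, 9.77 and 9.61 in EYFP NSCs and 9.85, 9.77 and 9.67 in hippocampal NSCs. In astrocytes it stood at 10.13, 10.28 and 10.20, then 9.98, 10.24 and 10.02, then 10.46, 10.53 and 10.51. The lowest NSC group was the tdTomato line and the highest astrocyte group the hippocampal line. Rorb rose by 0.87 ± 0.08, 0.37 ± 0.08 and 0.74 ± 0.05 (adjusted p = 8e-06, 0.0018 and 7.5e-07). Rora, the family member of cerebellum and the clock, rose by 1.29 ± 0.07. Of 18 tested genes of the ROR family and the circadian clock, 11 rose and 6 fell, with a median of 0.65. Among those that rose were Dbp, a clock output factor (1.97 ± 0.07), and Npas2, a partner of the clock activator (1.84 ± 0.43). Npas2 had a group mean of 6.31 in hippocampal astrocytes against 2.46 at most in the other 5 groups. Those 5 means lay below the filter of log2(10), which Npas2 passed through the hippocampal astrocytes, so its rise over all lines rests mainly on that group. The repressor genes Nfil3 and Per1 and the output factor Hlf fell, by 1.39, by 0.67 and by 0.57 on the log2 scale.

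**Figure D3:**
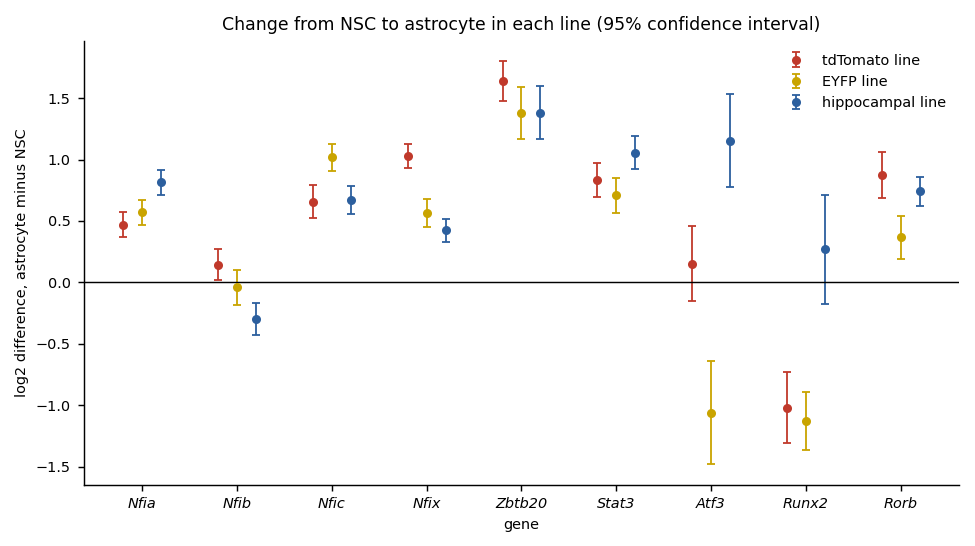
Log2 difference between astrocytes and NSCs (y axis) for each gene (x axis) within the tdTomato, EYFP and hippocampal lines (points, estimates from 3 against 3 libraries; error bars, 95% confidence interval). The intervals of Nfia, Nfic, Nfix, Zbtb20, Stat3 and Rorb lie above 0 in all 3 lines. That of Atf3 lies below 0 in the EYFP line and above 0 in the hippocampal line. That of Nfib lies above 0 in the tdTomato line and below 0 in the hippocampal line. Runx2 lies below 0 in both traced lines, and its hippocampal interval includes 0.

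Runx2 (ENSMUSG00000039153; chromosome 17, 44495987 to 44814797, reverse strand) was the member that set the origins apart as stem cells. It stood at 7.39, 7.19 and 7.13 in tdTomato NSCs and 7.15, 7.32 and 7.20 in EYFP NSCs, but at 5.51, 5.77 and 5.43 in hippocampal NSCs. The 6 traced libraries overlapped each other and lay more than 1 log2 unit above the hippocampal ones. In astrocytes it stood at 6.41, 6.05 and 6.19, then 6.06, 6.15 and 6.08, then 6.26, 5.57 and 5.68. In astrocytes the 3 lines overlapped. Runx2 fell in both traced lines, by 1.02 and by 1.13 on the log2 scale (adjusted p = 5.8e-05 and 7.1e-06), whereas hippocampal cells gave a difference of 0.27 (95% interval -0.18 to 0.71, adjusted p = 0.24). The change differed between the origins by -1.34 ± 0.19 (adjusted p = 1.7e-05). Its fall over all lines, by 0.63 on the log2 scale (adjusted p = 0.0035), therefore averages lines that differed. Runx2 was the lowest of the 9 genes on the log2 scale, and its exons overlap an antisense gene, Runx2os1, over 5.87% of their length.

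Of 11 tested genes of the RUNX family and its bone targets, 4 rose and 6 fell over all lines. The targets that rose most were Dlx3 (2.25 ± 0.29), Msx1 (2.10 ± 0.11) and Tnfrsf11b (1.41 ± 0.47). Dlx3 and Msx1 are homeobox genes induced by BMP, and Tnfrsf11b encodes the decoy receptor osteoprotegerin. The group means of Tnfrsf11b stood at 4.41 in hippocampal astrocytes and at 1.07 or less in the other groups. Those lower means lay below the filter on low values, which Tnfrsf11b passed through the hippocampal astrocytes. Its rise over all lines therefore rests mainly on that group. Alpl, the alkaline phosphatase of mineralising cells, fell by 2.67 on the log2 scale, Runx3 by 2.13 and Vegfa by 1.69. Runx1 fell by 1.02 on the log2 scale over all lines. Runx1 stood at 7.08 to 7.58 in tdTomato NSCs, 7.98 to 8.20 in EYFP NSCs and 7.76 to 7.81 in hippocampal NSCs, and at 6.05 to 6.51, 6.29 to 6.46 and 7.41 to 7.61 in the astrocytes. As NSCs, Runx1 therefore did not show the gap between origins seen in Runx2 (traced minus hippocampal, -0.09 ± 0.23, adjusted p = 0.84).

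Atf3 (ENSMUSG00000026628; chromosome 1, 191170296 to 191218039, reverse strand) changed in opposite directions in the lines. It stood at 9.01, 8.94 and 8.42 in tdTomato NSCs, 9.96, 9.95 and 9.17 in EYFP NSCs and 8.41, 9.09 and 8.39 in hippocampal NSCs. In astrocytes it stood at 8.98, 8.94 and 8.91, then 8.72, 8.68 and 8.50, then 9.94, 9.81 and 9.60. The highest groups were thus EYFP NSCs and hippocampal astrocytes, and in each NSC group 1 library stood apart from the other two. Atf3 fell by 1.06 on the log2 scale in the EYFP line (adjusted p = 0.00055), rose by 1.15 ± 0.17 in the hippocampal line (adjusted p = 0.00014) and gave 0.15 (95% interval -0.15 to 0.46, adjusted p = 0.32) in the tdTomato line. Over all lines the difference was 0.08 (-0.44 to 0.61, adjusted p = 0.77), and the interaction of fate and line accounted for 71.6% of its variance.

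Genes of stress and handling moved with part of this pattern. The mean log2 value of 16 genes of the integrated stress response was 10.17, 10.67 and 9.52 in EYFP NSCs, 9.60, 9.64 and 9.47 in tdTomato NSCs and 9.44, 9.83 and 9.46 in hippocampal NSCs. Within each NSC group, the libraries high in Atf3 were those with the higher stress response values, which lay close together in tdTomato NSCs. In hippocampal astrocytes, where Atf3 was also high, that list stood at 9.45, 9.50 and 9.53, beside 9.28 to 9.46 in the traced astrocytes. The mean of 17 genes of tissue handling and heat shock was 10.99 to 11.25 in EYFP NSCs, 10.20 to 10.43 in tdTomato NSCs, 10.41 to 10.97 in hippocampal NSCs and 9.46 to 10.12 in all astrocytes. Their part in the values of Atf3 was not tested.

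**Figure D4:**
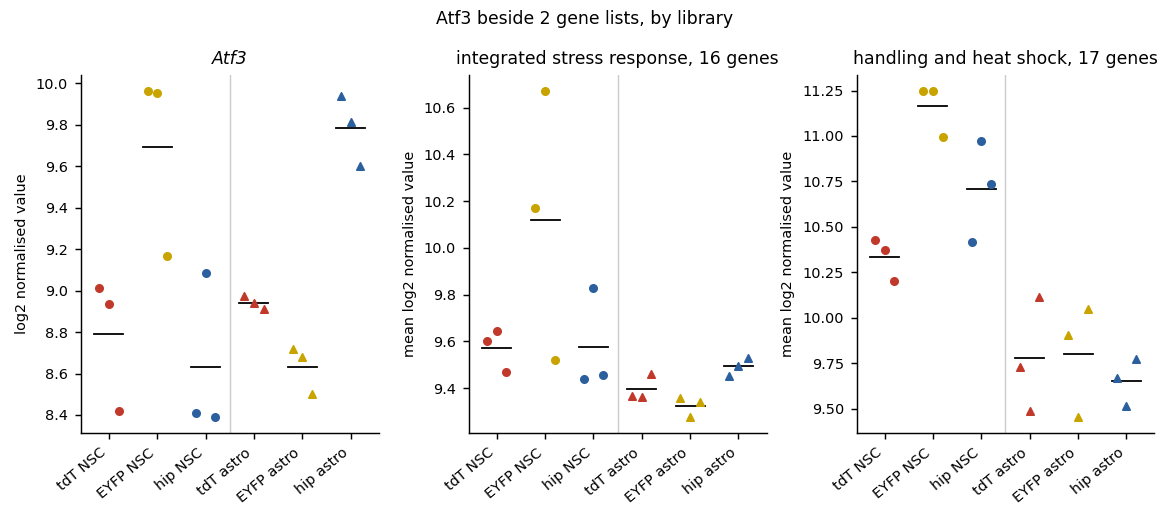
Log2 normalised value of Atf3 (left) and the mean log2 value of 16 genes of the integrated stress response (middle) and of 17 genes of handling and heat shock (right) in every library, by group (x axis; circles, NSCs; triangles, astrocytes; bar, mean of 3). EYFP NSCs 1 and 2 are high in all 3 panels, and hippocampal astrocytes are high in Atf3 while both lists stand near the level of the other astrocytes.

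Of 22 tested genes of the ATF and AP-1 family, partners with which ATF3 can pair or which share its sites, 11 rose and 6 fell over all lines (median 0.15). The rises were led by Cebpd (2.12 ± 0.22) and Cebpb (2.03 ± 0.12), factors of the acute phase response, and Batf3 (1.06 ± 0.24), and the falls by Fosb, an immediate early gene (-4.35 ± 0.25), Maff (-1.80 ± 0.17) and Atf4, the effector of the integrated stress response (-1.55 ± 0.10). Of the 16 stress response genes, which share 3 with this family, 3 rose and 7 fell; Cebpb, Gadd45a (0.83 ± 0.06) and Ddit3 (0.37 ± 0.10) were those that rose, and the amino acid enzymes Psat1 (-1.81 ± 0.24) and Asns (-1.75 ± 0.20) fell most. Of the 17 handling and heat shock genes, 12 fell and 4 rose. Fosb, Egr3 (-4.08 ± 0.19) and Nr4a1 (-3.15 ± 0.18), induced within minutes of a stimulus, led the falls. The heat shock genes Hspb1 (2.84 ± 0.38), Hspa1a (2.65 ± 0.13) and Hspa1b (1.84 ± 0.11) led the rises; Hspa1a and Hspa1b are near-identical copies whose reads may have been split between them. Hspb1 reached 7.30 to 8.05 in hippocampal astrocytes and 4.01 to 5.13 in traced astrocytes. NSCs were detached with enzyme before lysis, and how the astrocytes were lifted is not stated, so fate and harvest cannot be told apart in these genes.

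**Figure D5:**
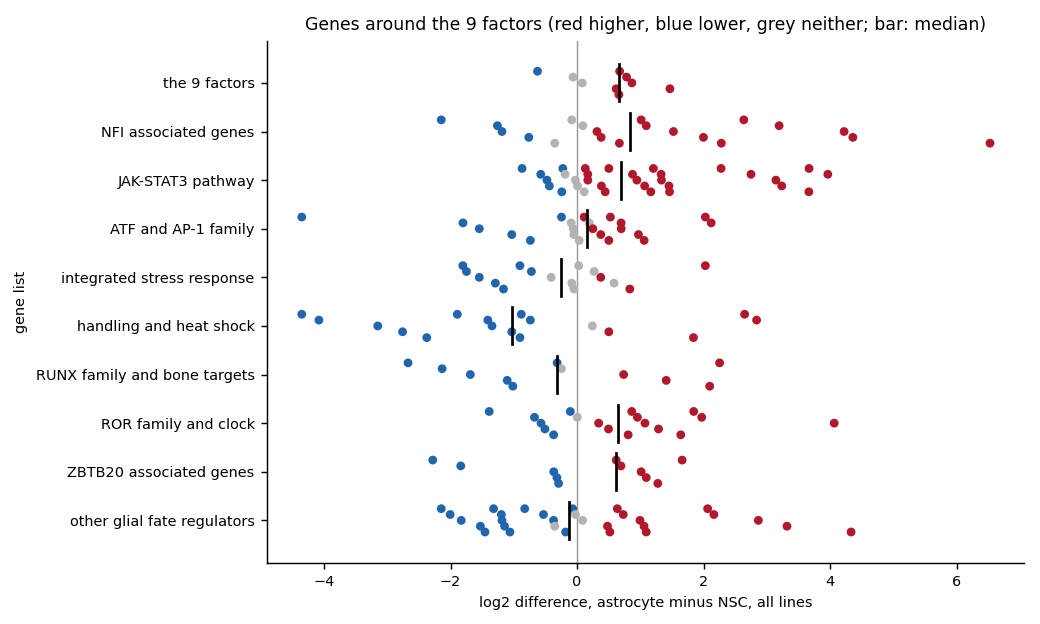
Log2 difference between astrocytes and NSCs over all lines (x axis) of the tested genes in each list (y axis; points, genes; red, higher; blue, lower; grey, neither at an adjusted p of 0.05; black bar, median). The 9 factors, the NFI associated genes, the JAK-STAT3 pathway and the ROR and clock genes have medians from 0.65 to 0.84, and the handling and heat shock genes a median of -1.03.

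Among 30 tested regulators of glial fate that are not members, 12 rose and 15 fell (median -0.13). The rises were led by Id4 (4.33 ± 0.12) and Id1 (2.87 ± 0.09), inhibitors of basic helix-loop-helix factors and targets of BMP-SMAD signalling, and by the zinc finger gene Glis3 (3.32 ± 0.14). The falls were led by Ezh2, by Olig2, a determinant of oligodendrocytes and motor neurons (-2.01 ± 0.08), and by Etv5, a factor of FGF signalling (-1.83 ± 0.07). Id4 stood at 5.95 to 6.95 in NSC libraries and 10.42 to 11.13 in astrocyte libraries.

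Within single lines the counts of members were close to those over all lines. In the tdTomato line 7 of 9 rose, with Nfib on the weak call given above, and Runx2 fell, where 39.9% of all genes rose and 39.5% fell. In the EYFP line 6 rose and 2, Atf3 and Runx2, fell, against 37.5% and 37.4%. In the hippocampal line 7 rose and Nfib fell, against 39.2% and 38.2%. The same 6 genes rose in all 3 lines, and the calls for Nfib, Atf3 and Runx2 were not the same in every line. A difference between lines was tested by the interaction terms, given after the comparisons of lines.

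As NSCs, the traced and the hippocampal lines differed in 1 member, Runx2, which was higher in traced NSCs by 1.66 ± 0.10 on the log2 scale, or 3.17-fold (adjusted p = 2.1e-06, 6 libraries against 3). Of all genes, 10.6% were higher and 8.81% lower, and the difference in Runx2 was at or above that of 97.8% of them in size. The share of calls that were higher, 54.6%, became 44.6% with median centring and 48.2% with quantile normalization. In this fit, how far the tdTomato and EYFP lines stood apart enters the error. A fit of all 18 libraries in 6 groups, which does not, called 6 members: Runx2, Nfic (0.19) and Atf3 (0.61) higher and Nfia (-0.10), Zbtb20 (-0.26) and Rorb (-0.24) lower in traced NSCs (adjusted p from 0.0042 to 0.033 for the 5 besides Runx2). Calls also grew over all genes, to 4864 of 14541 tested from 2822 in the fit of the NSC libraries alone.

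As astrocytes, 7 members differed between the origins, and the libraries of these 7 did not overlap, as in 48.3% of all genes tested. Marker lists differed in the same comparison. Mean log2 values of the astrocyte list were 13.54 to 13.60 in hippocampal and 12.64 to 12.98 in traced astrocytes. The ependymal list stood at 6.82 to 7.31 and 6.19 to 6.43, and the neural stem cell list at 12.37 to 12.57 and 11.65 to 11.96. The oligodendrocyte list was also higher in hippocampal astrocytes (4.57 to 4.76 against 4.35 to 4.53). Lower there were the fibroblast and pericyte list (2.11 to 2.16 against 2.66 to 3.50) and the endothelial list (0.86 to 1.36 against 1.68 to 1.95). The neuronal list was lower as well, with a slight overlap (2.77 to 3.18 against 3.18 to 3.53). The part of these lists in the differences of the 7 members was not tested. Higher in traced astrocytes were Nfib (0.24 ± 0.06), Nfic (0.36 ± 0.04) and Nfix (0.41 ± 0.06), and lower were Nfia (-0.40 ± 0.04), Stat3 (-0.42 ± 0.06), Atf3 (-0.997 ± 0.112) and Rorb (-0.36 ± 0.07; adjusted p from 1.4e-05 to 0.0086). Of all genes, 24.1% were higher and 27.9% lower, and the share of calls that were higher, 46.4%, became 53.0% with median centring and 53.4% with quantile normalization. The NFI genes thus differed in direction: the hippocampal astrocytes were highest in Nfia and lowest in the other three. Zbtb20 gave -0.13 (95% interval -0.33 to 0.08), and Runx2 gave 0.32 (-0.03 to 0.67, adjusted p = 0.11), which became 0.53 with an adjusted p of 0.0095 without hippocampal astrocyte library 1. The call of Nfib was lost without the same library (adjusted p = 0.0503). The signed change, astrocytes minus NSCs, differed between origins for 7 members. Traced minus hippocampal, the difference was positive for Nfib (0.35 ± 0.08), Nfix (0.37 ± 0.04) and Nfic (0.17 ± 0.07), and negative for Nfia (-0.29 ± 0.05), Stat3 (-0.29 ± 0.08), Atf3 (-1.61 ± 0.25) and Runx2 (-1.34 ± 0.19). For Nfib this set values near 0 in the traced lines against a fall in the hippocampal line, and for Runx2 falls in the traced lines against a difference in the hippocampal line that did not pass. Of all genes, 20.3% had a positive and 25.9% a negative difference, and centring each library on its median turned this split from 43.9% to 56.2% of calls in the positive direction. The call of Nfic (adjusted p = 0.049) was lost when any of 11 single libraries was left out and under a block on replicate number (adjusted p = 0.057).

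The 2 traced lines differed from each other as NSCs in 6 members. In tdTomato NSCs Nfic was higher (0.41 ± 0.06), and Nfib (-0.16 ± 0.04), Nfix (-0.30 ± 0.04), Stat3 (-0.19 ± 0.05), Atf3 (-0.91 ± 0.23) and Rorb (-0.39 ± 0.09) were lower (adjusted p from 0.00093 to 0.027). Of all genes 18% were higher and 15.2% lower. Of the 17 handling genes, 16 were tested here, of which 14 were lower and 1 higher in tdTomato NSCs. Marker list means were lower in tdTomato NSCs for astrocytes (10.28 to 10.55 against 10.69 to 10.93) and ependymal cells (4.68 to 4.91 against 5.16 to 5.34). The neural stem cell and oligodendrocyte lists were lower too. The neuronal (2.72 to 2.98 against 2.24 to 2.55) and endothelial (1.82 to 2.06 against 1.48 to 1.72) lists were higher. The part of these lists in the differences of the members was not tested. With no filter on low values only Nfic and Nfix passed, and without tdTomato NSC library 3, EYFP NSC library 1 or EYFP NSC library 2 the count was 3. As astrocytes the traced lines differed in 1 member, Atf3 (0.31 ± 0.07, adjusted p = 0.026), where 5.6% of all genes were higher and 5.63% lower. The replicate numbers paired these 6 libraries, and with the pairing as a block Atf3 (adjusted p = 0.005) and Nfix (0.16, adjusted p = 0.017) passed, while the calls over all genes went from 1641 to 3049. Nfix also passed with quantile normalization (adjusted p = 0.024). The call of Atf3 was lost in the fit of all 18 libraries (adjusted p = 0.36), which called Nfix (adjusted p = 0.0052), and without any of the 3 tdTomato libraries or EYFP library 3 (adjusted p up to 0.089). The signed change differed between the traced lines for 4 members: tdTomato minus EYFP, the difference was positive for Nfix (0.46 ± 0.05), Rorb (0.51 ± 0.11) and Atf3 (1.21 ± 0.29), the last set by its fall in the EYFP line, and negative for Nfic (-0.36 ± 0.08; adjusted p from 3.2e-05 to 0.0095). Of all genes, 6.36% and 6.98% did so in the 2 directions, and the share of calls that were positive, 47.7%, became 55.4% with median centring and 49.1% with quantile normalization.

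The genes whose pattern over the 18 libraries was most like a member's were found by the root-mean-square difference of the log2 values after each gene's mean was taken away, among 11309 genes. They were Arhgap12 and Skp1a for Nfia (0.06 and 0.07), Dcaf17 and Arhgap32 for Nfib (0.06 and 0.07), Sv2a and Atp2c1 for Nfic (0.12 each), and Cdc37l1 and Fermt2 for Nfix (0.08 and 0.09). For Zbtb20 they were Parp4 and Zbtb4 (0.11 and 0.12), for Stat3 Slc39a1 and Lpcat3 (0.07 and 0.08), and for Rorb Gna13 and Suox (0.09 and 0.11). They were Fam78b and Pipox for Atf3 (0.23 and 0.33) and Myadm and Glce for Runx2 (0.24 and 0.28). The measure grows with a gene's own spread, which was smallest for Nfib, so it does not rank the members. All 18 libraries share their normalisation, and with 6 groups of 3 the likeness rests mainly on 6 levels.

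The 4 leukocyte markers in the table, Ptprc, Aif1, Csf1r and Itgam, failed the filter in every comparison, and none exceeded 1.76 in any library. The myelin gene Mog, the endothelial gene Cdh5 and the neuronal gene Stmn2 stayed below 0, while Foxj1, a factor of ciliated ependymal cells, stood at 9.41 to 10.48 in NSC and 10.97 to 12.28 in astrocyte libraries. Markers of other cells also moved: all 3 tested ependymal markers and 2 of 3 tested neuronal markers rose over all lines, as did 2 of 3 tested markers of fibroblasts and pericytes. The mean log2 value of the ependymal list was 4.68 to 5.34 in NSC and 6.19 to 7.31 in astrocyte libraries, and that of the neuronal list 2.24 to 2.98 and 2.77 to 3.53. Their part in the values of the 9 genes was not tested.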

How the data were processed

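The 9 genes and the gene lists around them were chosen with earlier results of these data known. The submitters' processing notes name Trimmomatic 0.36, STAR 2.5.2, RSEM 1.3.0, DESeq2 1.18.1 and R 3.4.3; in the study's methods STAR serves for alignment, RSEM for estimating gene expression and DESeq2 for normalisation by the authors. The labels and the methods differ in the RSEM version, the library kit and the read length, and the labels are followed here. The deposited table holds log2 values (-2.15 to 18.9; 29.4% below 0), and its transform is not given in the sources used here. The spread of low values is narrowed on such a scale, so differences of low genes may be understated. No counts could be recovered, so no count model was used and nothing is said of counting error; the intervals given are those of limma's differences.

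Groups were taken from the labels. Log2 values were compared with limma 3.58.1 in R 4.3.3 (trended variance, no pseudocount) on genes at log2(10) or above in at least 3 of the libraries compared, and p-values were adjusted by the Benjamini-Hochberg method over all genes tested, with 0.05 as the threshold. The comparison over all lines had line as a covariate, and all tests are two-sided. The scripts were tested on simulated data. Of the table's genes, 27887 had a symbol; positions follow GENCODE M21 on GRCm38. From each context list, the up to 3 tested genes with the largest rise and the largest fall over all lines were named, with related STAT, RUNX and ROR genes; some genes that this rule names are not reported here. Which of them are given by library was chosen after their values were seen. Replicate numbers were taken to pair groups whose 3 same-numbered libraries all had correlated deviations from the group means (over 0.1), which held for tdTomato and EYFP astrocytes (0.14 to 0.42); the labels give no source of this pairing. Alternatives were no filter, a filter at log2(100), pseudocounts of 1 and 10, median centring, quantile normalization, no variance trend, a replicate block, 1 fit of all 18 libraries, no line term and leaving out each library.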

Additional observations from a re-analysis of the deposited data

Results flagged for a closer look

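Groups of 3 libraries are too small for a test of whether 1 library stands apart. Over pools of 6 or 9 libraries from 2 or 3 lines such a test marked 0 of 36, but differences between lines can hide a single library there, so it does not speak to libraries within a group, such as the 1 in each NSC group that stood apart in Atf3. The change from NSCs to astrocytes differed between the traced and the hippocampal lines, by the interaction term of limma, for Nfia (-0.29 on the log2 scale, traced minus hippocampal), Nfib (0.35), Nfic (0.17), Nfix (0.37), Stat3 (-0.29), Atf3 (-1.61) and Runx2 (-1.34). It differed between the tdTomato and EYFP lines for Nfic (-0.36, tdTomato minus EYFP), Nfix (0.46), Atf3 (1.21) and Rorb (0.51). The spinal cord is represented by 2 traced lines and the hippocampus by 1 line of another genotype, so origin, genotype and line cannot be told apart, nor can reporter and line between the traced lines.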

How the results depend on the processing

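No difference of any of the 9 genes that passed the test changed direction under an alternative. Over the 9 genes in all comparisons, leaving out 1 library kept 883 results on their side of the threshold, ended 31 calls and added 4, and the other alternatives kept 758, ended 18 and added 13. The count between traced and hippocampal NSCs, 1 gene, became 2 with the replicate number as a block and 6 in the fit of all 18 libraries, and was 1 to 2 when single libraries were left out. That between tdTomato and EYFP NSCs, 6 genes, became 2 with no filter and was 3 to 7 without single libraries. That between tdTomato and EYFP astrocytes, 1 gene, became 0 with no filter or no trend, 2 with quantile normalization and 2 with the replicate block, and was 0 to 1 without single libraries. Outside that comparison the replicate numbers did not pair the samples (correlations of deviations -0.10 to 0.10 between the fates of a line, 9 pairs, and -0.03 to 0.40 between lines within a fate, at least 1 pair of each 2 groups at or under 0.1); there the block added Zbtb20 in traced against hippocampal NSCs (adjusted p = 0.041) and in tdTomato against EYFP NSCs (adjusted p = 0.0076), and with it the counts over all lines and in the tdTomato, EYFP and hippocampal lines were 7, 7, 8 and 8. Over all genes tested, calls between traced and hippocampal NSCs went from 2822 to 4864 in the fit of all libraries, between tdTomato and EYFP NSCs from 4748 to 2970 with no filter, and between tdTomato and EYFP astrocytes from 1641 to 975 with no filter and 3049 with the block. The filter at log2(100) left Runx2 out of 3 comparisons. The cause of these shifts was not tested.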
